A study of Mus musculus with 4 samples.

Results

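The genes described here encode the extracellular matrix that cultured muscle stem cells (MuSC) make and remodel, which comprises collagen chains, laminins and other basement membrane components, adhesive glycoproteins, proteoglycans, elastic fibre proteins, cross-linking enzymes, and matrix proteases with their inhibitors. They were chosen by name from a list of 47 genes, by a rule that uses no measured value, although the list was drawn up with earlier results of these data known, and all 47 were found among the 20065 genes of the expression table. Of these, 46 entered the test of the groups among 16212 genes with a mean normalised read count of at least 5, and elastin (Eln) did not. RNA-seq was performed on satellite cells from limb and trunk muscles of adult mice of the C57BL/6 background, purified by flow cytometry and grown on Matrigel, a coating of basement membrane proteins. The control group held 2 libraries of the genotype Pax7CreERT2/Prmt5+/loxP (+TAM), labelled wild type although these cells carry the Cre and a floxed allele. The Prmt5sKO group held 2 libraries of the genotype Pax7CreERT2/Prmt5loxP/loxP (+TAM), in which Cre driven from Pax7 removes the arginine methyltransferase Prmt5 from MuSC. TAM in the labels is tamoxifen, which activates this Cre, and the study's methods describe its active form 4-OH added to the culture. Nothing in the labels says whether the libraries of a group came from separate mice, so p-values measure only the spread between these libraries. The level of Xist, given below, differed between the libraries of each group, so they were not repeat libraries of 1 RNA.

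The libraries are named by depth, since the labels number the replicates of each group 1 and 2 but the deposited columns do not show which library has which number. The control libraries held 14436914 reads (deeper) and 13240754 reads (shallower), and the Prmt5sKO libraries held 20047430 (deeper) and 16190414 (shallower). Prmt5 had normalised read counts of 2273 and 2906 in controls, and its counts in Prmt5sKO were 244 and 202. The myogenic markers Myod1, at 12153 to 15548, and Des, at 12514 to 32171, were present in all 4 libraries. Below, values of a gene are normalised read counts in the order control deeper, control shallower, Prmt5sKO deeper and Prmt5sKO shallower, and log2 fold changes are Prmt5sKO minus control with their SE from limma-voom. In RNA of a whole culture, fewer cells of a type and less RNA per cell cannot be told apart.

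Collagens are assembled from alpha chains that wind into a helix inside the secretory pathway. Fibrillar collagens then polymerise outside the cell into fibres, whereas type IV collagen forms the sheet of the basement membrane together with laminins, nidogens and perlecan. In skeletal muscle a basement membrane surrounds each fibre and covers the satellite cell beneath it, laminins bind integrins and dystroglycan on the muscle cell, and most interstitial collagen is made by fibro-adipogenic cells rather than by myogenic cells.

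Upstream sequences help to place these genes, and the set of RefSeq promoters used here (GRCm38.p6) holds one for 32 of the 47. The clearest feature of gene arrangement is the type IV collagen pair: the genes for the alpha1 and alpha2 chains lie head to head on chromosome 8 and their first exons overlap by 22 bases. The 30 bases around both start sites are shown on the plus strand, at chr8:11312801-11312830, with the 22 shared bases in capitals. Col4a2 starts at the first capital and reads to the right, and Col4a1 starts at the last capital and reads to the left on the minus strand.

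Col4a1 and Col4a2 start sites: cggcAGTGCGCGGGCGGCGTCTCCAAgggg

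The 250 bases before the start site are shown for 4 members whose groups did not overlap, and no annotated exon reaches into these windows. These 4 are a selection: among non-overlapping members with a sequence, every match to CAGCTG or TATTTATA lies in them. Capitals mark the motifs searched on both strands, which were the E-box core CAGCTG that myogenic factors bind, the MEF2 core TATTTATA, the TATA box with the letters TATAAA, the CCAAT box, the GC box with the letters GGGCGG and the AP-1 site with the letters TGANTCA. In Thbs2 the match to TATAAA, on the other strand, lies within the stretch that also matches TATTTATA. The windows are chrX:73483351-73483600 on the plus strand for Bgn, chr17:14694263-14694512 on the minus strand for Thbs2, chr2:180225860-180226109 on the minus strand for Lama5, and chr9:20815068-20815317 on the minus strand for Col5a3, each written 5′ to 3′ along its gene.

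Bgn: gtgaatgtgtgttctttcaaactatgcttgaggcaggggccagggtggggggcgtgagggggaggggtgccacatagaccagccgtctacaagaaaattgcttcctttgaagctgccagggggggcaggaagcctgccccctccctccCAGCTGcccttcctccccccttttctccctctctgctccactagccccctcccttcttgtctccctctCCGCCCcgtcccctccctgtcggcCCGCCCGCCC

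Thbs2: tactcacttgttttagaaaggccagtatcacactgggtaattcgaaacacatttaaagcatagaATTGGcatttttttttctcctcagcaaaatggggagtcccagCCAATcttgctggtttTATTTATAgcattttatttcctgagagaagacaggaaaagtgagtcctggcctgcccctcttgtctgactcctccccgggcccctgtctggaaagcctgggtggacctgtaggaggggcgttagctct

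Lama5: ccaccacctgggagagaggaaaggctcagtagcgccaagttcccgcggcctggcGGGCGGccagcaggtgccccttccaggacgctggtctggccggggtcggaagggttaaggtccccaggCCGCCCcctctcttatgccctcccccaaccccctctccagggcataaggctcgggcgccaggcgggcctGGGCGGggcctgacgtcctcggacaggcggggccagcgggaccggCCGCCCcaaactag

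Col5a3: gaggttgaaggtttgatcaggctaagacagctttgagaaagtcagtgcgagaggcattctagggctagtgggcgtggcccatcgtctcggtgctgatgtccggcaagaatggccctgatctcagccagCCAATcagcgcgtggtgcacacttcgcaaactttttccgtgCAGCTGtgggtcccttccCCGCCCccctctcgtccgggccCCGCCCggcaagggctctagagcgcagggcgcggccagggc

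Over the 32 matrix promoters, GGGCGG was found in 21 (65.6%), against 32.9% of 27025 mouse promoters of the same length. CCAAT was found in 14 (43.8%, against 34.5%). CAGCTG was found in 4 (12.5%), near the 12.8% of all promoters, and these were Bgn, Col5a3, Sparc and Timp2. For Bgn and Col5a3 the start site used lay at or next to the annotated gene start. It lay 3103 bases away for Sparc and 329 for Timp2, and the largest such distance among the 32 was 49344, for Col25a1. The remaining motifs were rarer, with TATAAA in 5 matrix promoters (15.6%, against 13% of all), TATTTATA in 1 (3.12%, against 1.63%) and TGANTCA in 1 (3.12%, against 6.87%). The 2 sets are not alike. The set of all promoters took the first listed of each gene with no filter on gene type. The matrix promoters, all of protein-coding genes, were those nearest the annotated gene start. GC content was not matched, so these shares are not a comparison of like promoters. A match is a description of the letters and not of binding.

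The matrix genes covered a wide range of levels. Per kilobase of exon, the mean of the 4 libraries was highest for Spp1 (osteopontin, a secreted adhesive phosphoprotein), at 29058 normalised reads per kb. Thbs1 (thrombospondin 1, which can activate latent TGF-beta) followed at 4824, Sparc (a collagen-binding matricellular protein) at 4134 and the metalloprotease inhibitor Timp1 at 3963. Among collagen chains the order was Col5a2 (2073 per kb), Col18a1 (1311), Col3a1 (1259), Col4a1 (695), Col5a1 (496), Col1a2 (485) and Col4a2 (397). The alpha1 chain of type I collagen, which pairs with alpha2 in a fixed ratio in the protein, stood far below its partner: Col1a1 was at 23.0 per kb and rank 37 of the 47. Thus the ratio of Col1a1 to Col1a2 per kb was 0.0366 and 0.0682 in controls, beside 0.0479 and 0.0496 in Prmt5sKO. In contrast, Col4a1 and Col4a2, which share their promoter region, kept a ratio of 1.75 and 1.71 in controls and of 1.42 and 1.91 in Prmt5sKO. The proteoglycans Dcn (decorin) and Lum (lumican) were at 6.54 and 2.78 per kb, while Bgn was at 1045, and Eln was lowest at 0.263.

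**Figure D1:**
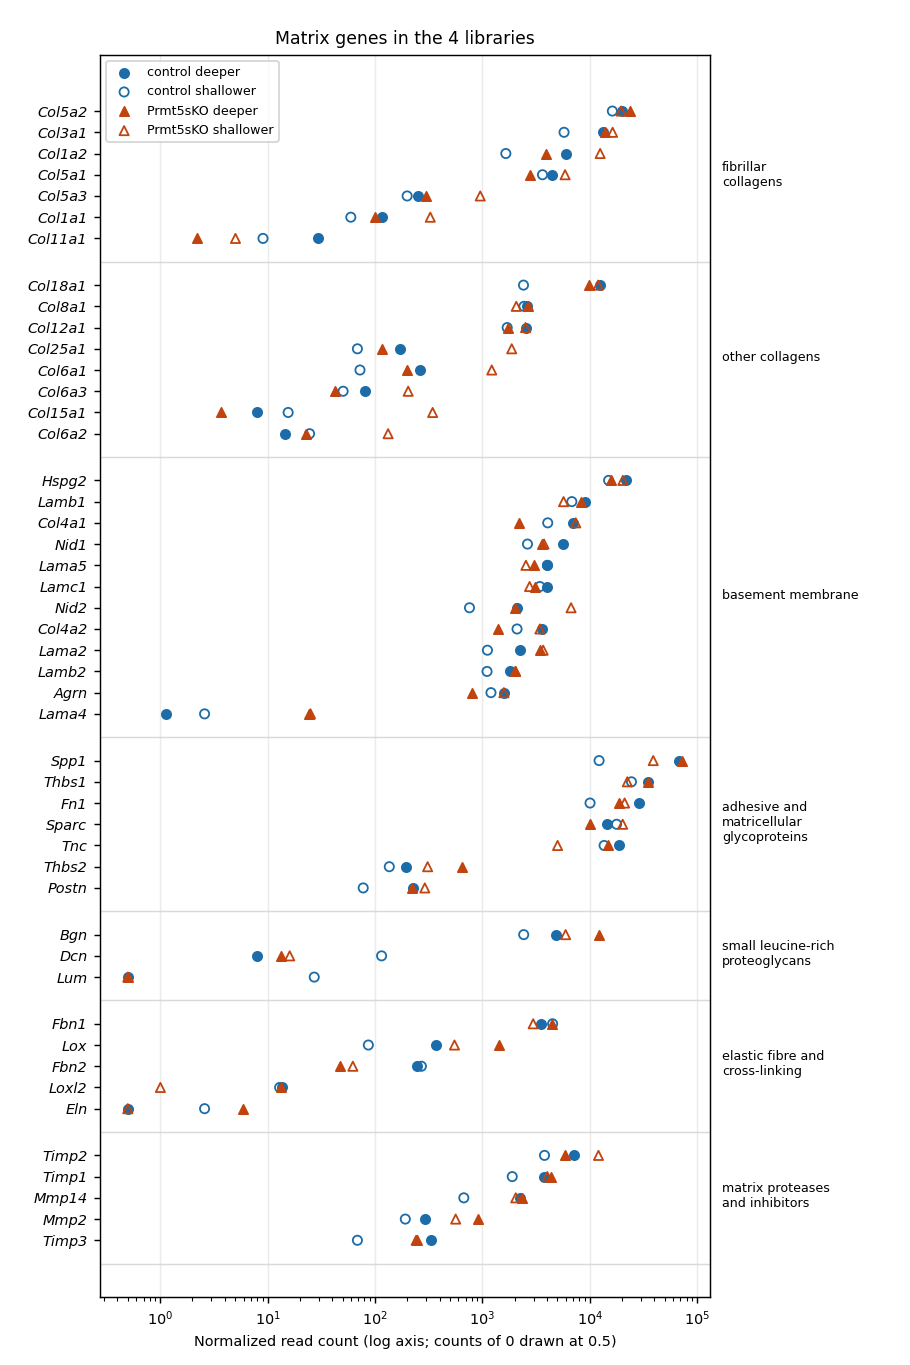
Normalised read counts of the 47 matrix genes in the 4 libraries, on a log axis, with genes grouped by role and sorted by mean level. Circles are control libraries and triangles Prmt5sKO libraries, filled for the deeper and open for the shallower library of each group, and counts of 0 are drawn at 0.5. Spp1 has the highest values, and the open triangle lies to the right of the other symbols for most collagen chains of low level, such as Col15a1 at 345 and Col25a1 at 1881.

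No matrix gene passed the test of the groups, which asked for an adjusted p up to 0.05 together with a change of 2-fold or more. The call was made for 0.0% of all 16212 genes as well. The study itself reported up- and downregulated genes from these libraries with DESeq2, a different test. The smallest Benjamini-Hochberg adjusted p of limma-voom was 0.206 among members (Fbn2) and 0.193 among all genes. The latter was that of Prmt5 itself (log2 fold change -3.52, SE 0.27). The test thus did not call even the deleted gene, and a missing call does not show that a gene was unchanged. At an unadjusted p under 0.05 stood 8 members, 6 with higher and 2 with lower values in Prmt5sKO, that is 13.0% and 4.35% of those tested, beside 6.01% and 6.95% of all genes. Both Prmt5sKO libraries lay above both control libraries for 10 members (21.7%), beside a background of 25.2% of all genes, and below both for 4 members (8.70%), beside 23.6%. For 32 of the 46 the groups overlapped. A fitted change of at least 2-fold was upward for 13 members (28.3%, against 12.8% of all genes) and downward for 4 (8.70%, against 9.05%). The median log2 fold change of the members was 0.45 and that of all genes 0.02, while the median SE was 0.49 for members and 0.38 for all genes. The alternative limma-trend also called 0 genes, and 2101 of all genes (13.0%) had an unadjusted p under 0.05 by limma-voom.

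**Figure D2:**
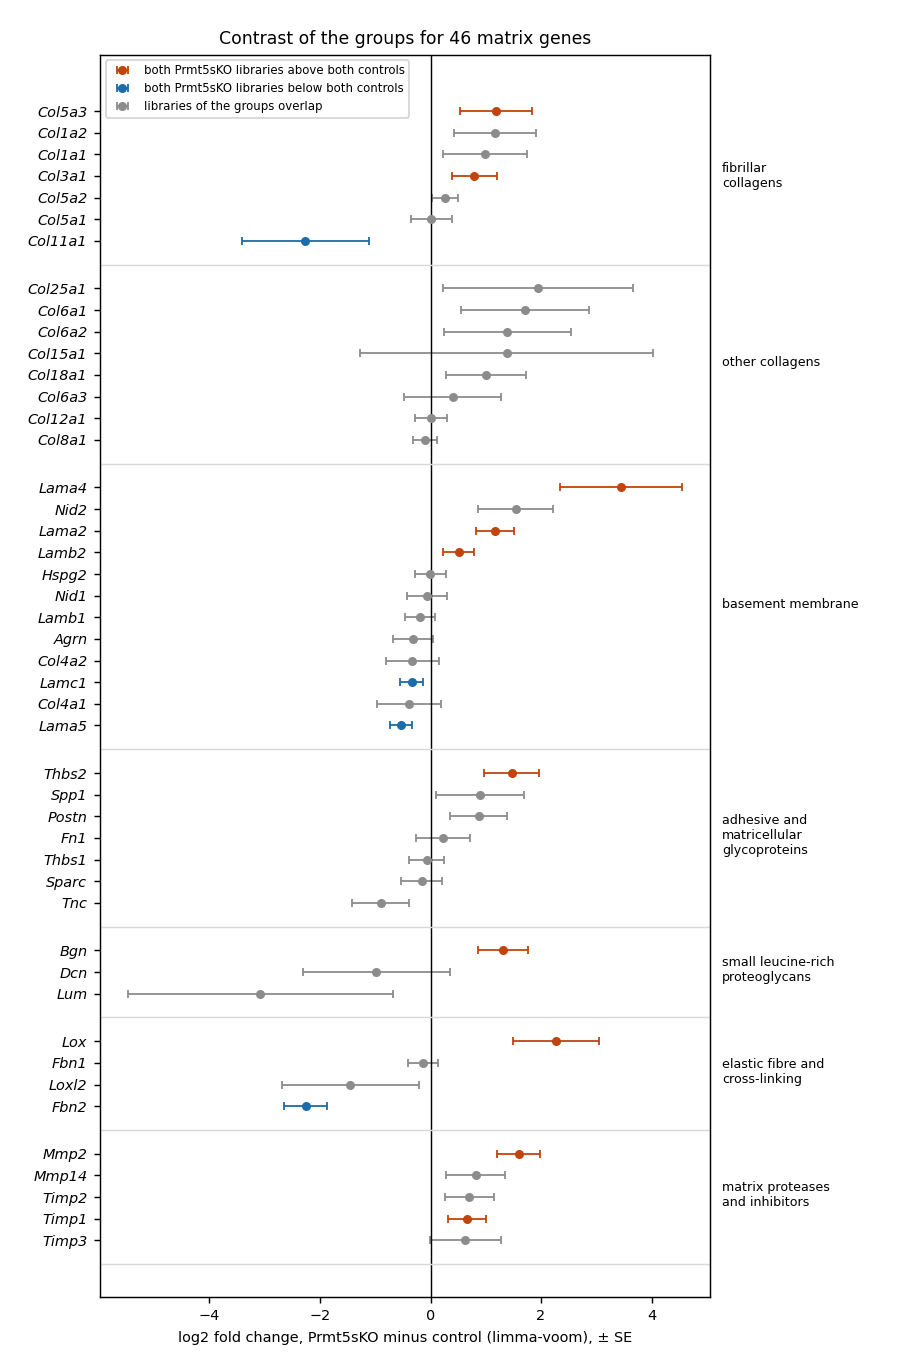
Log2 fold change (Prmt5sKO minus control, limma-voom) of the 46 matrix genes tested, with bars of 1 SE, grouped by role and sorted within each group. Colours mark the 10 genes with both Prmt5sKO libraries above both controls, the 4 with both below, and the 32 that overlap. The widest bars belong to Col15a1 and Lum, and Fbn2 stands apart at -2.26 with a short bar.

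Among the basement membrane genes the laminin chains differed in direction. Laminins are heterotrimers of an alpha, a beta and a gamma chain. Lama2 encodes the alpha2 chain of the laminin of mature muscle, whose loss causes a congenital muscular dystrophy, and it was read at 2244, 1117, 3449 and 3689. Both Prmt5sKO libraries were above both controls (log2 fold change 1.17, SE 0.35, 95% interval 0.32 to 2.02, unadjusted p = 0.015 by limma-voom). Lamb2, the beta chain found at the neuromuscular junction, was read at 1808, 1107, 2003 and 2043, again with no overlap (0.51, SE 0.28). Lama5, the alpha5 chain of laminins that support stem cell growth, was read at 4043, 4045, 3059 and 2548. Its Prmt5sKO libraries were both below the controls, which differed little from each other (-0.54, SE 0.21, 95% interval -1.04 to -0.03, unadjusted p = 0.040 by limma-voom). Lamc1, the gamma chain common to most laminins, was also lower in both Prmt5sKO libraries (4038, 3430, 3116 and 2759) by a small amount (-0.34, SE 0.21). Lamb1 overlapped (8983, 6824, 8304 and 5712). Lama4 was barely transcribed in controls, with 3 reads in both libraries together against 58 in Prmt5sKO, a ratio of 13.7 with a counting interval of 4.45 to 68.2. Its normalised counts were 1.13, 2.59, 24.4 and 25.1, so that per kb of exon the Prmt5sKO libraries held 2.03 and 2.08 reads of Lama4 beside 211 and 226 of Lama2.

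The other basement membrane genes overlapped between the groups. Col4a1 was read at 7048, 4070, 2221 and 7420, and Col4a2 at 3574, 2107, 1387 and 3440, so both chains had their lowest value in the deeper Prmt5sKO library and near-equal values in the shallower Prmt5sKO and the deeper control library. Nid1 and Nid2, the nidogens that bridge laminin and type IV collagen, went separate ways. Nid1 overlapped at 5620, 2637, 3606 and 3757, whereas Nid2 was read at 2109, 760, 2031 and 6711, and the ratio of Nid1 to Nid2 per kb ran from 2.59 in the shallower control to 0.417 in the shallower Prmt5sKO library. Perlecan (Hspg2), the large heparan sulphate proteoglycan, overlapped at 21916, 15020, 15967 and 20371 (log2 fold change -0.00, 95% interval -0.68 to 0.67). Agrin (Agrn), which clusters acetylcholine receptors, was read at 1600, 1205, 796 and 1591.

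Of the 17 collagen chains, 2 lay above and 1 below the controls in both Prmt5sKO libraries, that is 11.8% and 5.88% beside 25.2% and 23.6% of all genes. An unadjusted p under 0.05 by limma-voom was found for 0 of the chains and for 13.0% of all genes. Col3a1, a fibrillar chain of extensible tissues, was read at 13308, 5774, 13988 and 16357 (0.79, SE 0.41). Its deeper control library lay just under the deeper Prmt5sKO library. Col5a3, a minor chain of type V collagen, was read at 251, 200, 297 and 957 (1.19, SE 0.65), and most of its difference came from the shallower Prmt5sKO library. Col11a1, a fibrillar chain best known from cartilage, was low throughout at 29.4, 9.08, 2.22 and 5.03 (-2.27, SE 1.14). Fitted values above 0 were found for 13 of the 17 chains (76.5%, against 51.4% of all genes), and the chains had medians of 0.79 for the log2 fold change and of 0.72 for its SE.

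The spread of the collagen chains lay between the libraries of a group. The shallower Prmt5sKO library exceeded the deeper by at least 2-fold for 12 of 17 chains (70.6%), a step made by 12.8% of all genes, and the opposite step was made by none of the chains and by 9.44% of all genes. Col15a1, a basement membrane-associated collagen of muscle and vessels, was at 7.91, 15.6, 3.70 and 345, a 93.1-fold difference within Prmt5sKO. That ratio rests on only 5 reads in the deeper Prmt5sKO library, beside 343 in the shallower. Col25a1, a transmembrane collagen that myotubes need for innervation by motor axons, was at 172, 68.7, 117 and 1881, a 16.1-fold difference. The 3 chains of type VI collagen, the microfibrillar collagen whose loss causes Ullrich and Bethlem myopathies, moved together within Prmt5sKO. Col6a1 was read at 262, 72.6, 200 and 1226, Col6a2 at 14.7, 24.6, 23.0 and 133, and Col6a3 at 80.2, 50.6, 42.2 and 204, which gave folds of 6.13, 5.78 and 4.83 between the Prmt5sKO libraries. Col1a1 (116, 59.7, 99.3 and 328) and Col1a2 (6015, 1657, 3925 and 12522) followed with 3.30 and 3.19. Members with little difference within Prmt5sKO were Col5a2 (19859, 16273, 23768 and 19617), Col8a1 (2622, 2445, 2685 and 2073), Col12a1 (2530, 1707, 1732 and 2530) and Col18a1 (12449, 2420, 9933 and 12009), the source of the fragment endostatin. Col5a1 had values of 4492, 3638, 2796 and 5904.

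The control libraries differed as well. The deeper was above the shallower for 37 of the 46 members (80.4%, against 51.3% of all genes) and by at least 2-fold for 15 (32.6%, against 12.0%), among them Col18a1 (5.14-fold), Col1a2 (3.63-fold), Col6a1 (3.61-fold) and Col25a1 (2.50-fold). The reverse order was seen for 9 members, and by at least 2-fold for 2 (4.35%, against 8.64% of all genes). These 2, Dcn (7.91 and 115) and Lum (0 and 27.2), are proteoglycans of fibro-adipogenic cells.

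**Figure D3:**
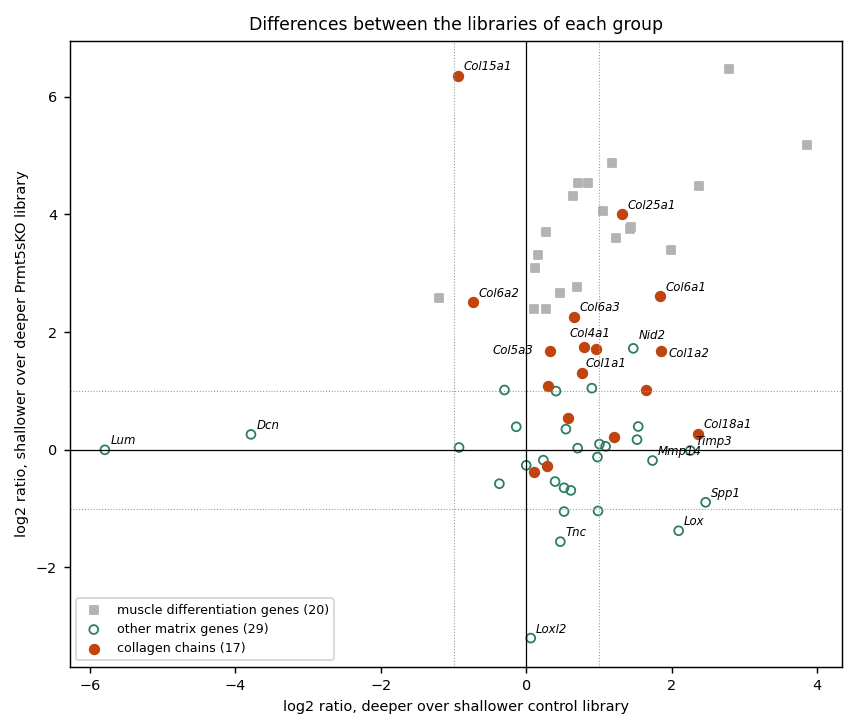
Log2 ratio of the shallower to the deeper Prmt5sKO library (vertical) against that of the deeper to the shallower control library (horizontal) for 17 collagen chains, 29 other matrix genes and 20 muscle differentiation genes, with a pseudocount of 0.5 normalised reads. Both ratios set the library with high Xist over the library with low Xist. Dotted lines mark 2-fold. Of the collagen chains, 12 lie above the upper dotted line, as do all 20 differentiation genes, whereas Tnc, Thbs2, Bgn, Lox and Loxl2 lie below the lower one.

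Markers of muscle differentiation moved with the collagen chains between libraries. All 20 muscle differentiation genes tested were at least 2-fold higher in the shallower than in the deeper Prmt5sKO library, and their summed normalised counts were 55530, 99230, 50970 and 485800. Embryonic myosin heavy chain (Myh3) was at 2858, 1738, 3024 and 70413, and skeletal alpha-actin (Acta1) at 2366, 1001, 4951 and 60227. Both Prmt5sKO libraries lay above both controls for 14 of the 20 (70%, against 25.2% of all genes) and below both for 0 (0%, against 23.6%). An unadjusted p under 0.05 by limma-voom was found for 3, all with higher values (15%, against 6.01%). In controls the summed level ran against the collagens, because the most abundant member Ttn was higher in the shallower library (39149 against 90033), although 19 of the 20 genes were higher in the deeper one. The list shares no gene with the members. The deeper control and the shallower Prmt5sKO library were also those with high Xist, given below. Differences within each group are therefore also differences of Xist state. The part of differentiation or of Xist state in the collagen values was not tested.

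For 4 members with an unadjusted p under 0.05, picked after their values were seen, the deeper Prmt5sKO library had the highest value. Bgn (biglycan, a small leucine-rich proteoglycan that binds collagen and the dystroglycan complex) was read at 4820, 2432, 12273 and 5971. All Prmt5sKO values were above all control values (log2 fold change 1.32, SE 0.45, 95% interval 0.21 to 2.43, unadjusted p = 0.027 by limma-voom). Thbs2 (thrombospondin 2, an anti-angiogenic matricellular protein) was read at 196, 136, 642 and 310, with the same order (1.47, SE 0.50, unadjusted p = 0.025 by limma-voom). Lox, the lysyl oxidase that cross-links collagen and elastin, was read at 373, 86.9, 1431 and 551 (2.26, SE 0.78, unadjusted p = 0.027 by limma-voom). Mmp2, the gelatinase that degrades type IV collagen, was read at 294, 192, 912 and 565 (1.59, SE 0.38, 95% interval 0.66 to 2.53, unadjusted p = 0.0058 by limma-voom). That the shallower Prmt5sKO library was the lower of its group for these 4 genes follows from how they were picked. In that library 12 of 17 collagen chains were at least 2-fold above the deeper. The other members with higher values at this p, Lama2 and Lama4, differed little within Prmt5sKO. The metalloprotease that activates pro-MMP2 on the cell surface, Mmp14, did not separate the groups (2243, 673, 2327 and 2051), and neither did its cofactor Timp2 (7096, 3799, 5844 and 12081). Timp1 did, narrowly, at 3749, 1901, 4393 and 4035 (0.66, SE 0.34), while Timp3 had values of 330, 68.7, 245 and 242.

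The smallest p of the members belonged to a gene with lower values in Prmt5sKO. Fbn2 (fibrillin 2, a microfibril protein of developing tissue, at 58008623 to 58210487 of chromosome 18 on the minus strand) was read at 246, 271, 47.4 and 62.4. The libraries of each group were close together, and the log2 fold change was -2.26 (SE 0.39, 95% interval -3.20 to -1.32, unadjusted p = 0.0011 by limma-voom, adjusted p = 0.206). Its paralogue Fbn1 overlapped between the groups at 3496, 4517, 4441 and 2979 (-0.13, SE 0.27). Elastin, which is deposited on fibrillin microfibrils, had 0, 2.59, 5.93 and 0, at or near the floor of 3 reads, which is a normalised count of 2.22 to 3.89 in these libraries. Loxl2, a lysyl oxidase of type IV collagen, had 13.6, 13.0, 13.3 and 1.01.

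The abundant adhesive glycoproteins overlapped between the groups. Spp1 had its extremes in both groups (67630, 12236, 72574 and 39107), so that the controls differed by 5.53-fold. Fibronectin (Fn1), a ligand of integrins and a component of the activated satellite cell niche, was read at 28981, 10084, 18776 and 21162. Tenascin-C (Tnc), a matricellular protein of regenerating muscle, was read at 18871, 13635, 14828 and 5026 (-0.90, SE 0.51), with its lowest value in the shallower Prmt5sKO library. Sparc (14479, 17814, 10038 and 20312), Thbs1 (35144, 24504, 35094 and 22436) and periostin (Postn, 227, 77.8, 222 and 292) also overlapped.

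**Figure D4:**
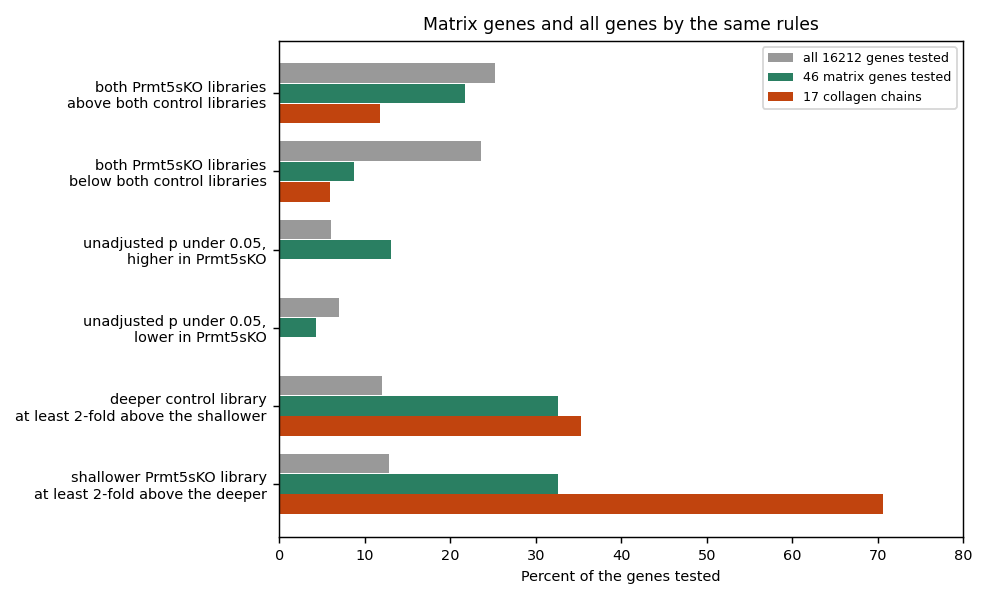
Percent of all 16212 genes tested, of the 46 matrix genes tested and of the 17 collagen chains that meet each of 6 descriptions of the 4 libraries, with bars from 0. Both Prmt5sKO libraries lie above both controls for 21.7% of matrix genes and 25.2% of all genes and below for 8.70% and 23.6%, while steps of at least 2-fold are made by 32.6% of matrix genes in both of the directions drawn (deeper control over shallower, shallower Prmt5sKO over deeper), the latter by 70.6% of collagen chains.

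Genes that process, bind or regulate the matrix were counted from lists of the same kind, and none of these genes passed the test. Of 26 receptors of the matrix tested, 12 were higher and 0 lower in both Prmt5sKO libraries (46.2% and 0%, against 25.2% and 23.6% of all genes), and 7 had an unadjusted p under 0.05, all with higher values (26.9%, against 6.01% of all genes). Itgb5, a subunit of the vitronectin receptor, was at 602, 180, 1094 and 1379 (1.85, SE 0.51), Itgb3 at 98.3, 61.0, 373 and 189 (1.80, SE 0.56), and Itga4, a subunit that binds fibronectin and VCAM1, at 208, 64.8, 279 and 503 (1.61, SE 0.61). The collagen-binding alpha subunits Itga11 (36.2, 19.5, 99.3 and 67.4) and Itga10 (61.0, 51.9, 133 and 140) and the fibronectin-binding Itga8 (7.91, 7.78, 41.5 and 29.2) were of low level. The shared beta1 subunit Itgb1 was at 15169, 12778, 18477 and 15557 (0.28, SE 0.23), and the syndecan Sdc3 overlapped at 12410, 9679, 13077 and 9548.

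Of 29 tested genes of collagen biosynthesis, 6 were higher and 3 lower in both Prmt5sKO libraries (20.7% and 10.3%, against 25.2% and 23.6% of all genes). The procollagen hydroxylases Plod2 (1519, 1141, 3711 and 2232, log2 fold change 1.12, SE 0.31) and P4ha1 (896, 689, 1196 and 2086, 1.00, SE 0.33) were the 2 with an unadjusted p under 0.05 (6.90%, against 13.0% of all genes). The collagen chaperone Serpinh1 (16159, 12064, 12916 and 14612, -0.02, SE 0.24) and P4hb, a subunit of the prolyl hydroxylase (9854, 9325, 9065 and 9340, -0.06, SE 0.20), overlapped between the groups. In the TGF-beta axis 4 of 20 were higher and 4 lower (20% each, near the shares of all genes). Its coreceptor Tgfbr3 was at 13.6, 10.4, 70.4 and 50.3 (2.28, SE 0.70), its latency protein Ltbp1 at 17183, 15700, 14909 and 11056 (-0.36, SE 0.24) and its repressor Skil at 6117, 5949, 6708 and 4378. Of 27 other matrix genes, 9 were higher and 3 lower (33.3% and 11.1%, against 25.2% and 23.6%). Ogn (osteoglycin, a small leucine-rich proteoglycan) was at 56.5, 66.1, 355 and 1072 (3.29, SE 0.89), and Npnt (nephronectin, a ligand of integrin alpha8) overlapped at 15209, 4846, 5798 and 9219. Of 17 other matrix proteases and inhibitors, 7 were higher and 1 lower (41.2% and 5.88%, against 25.2% and 23.6%). Tissue plasminogen activator (Plat) was at 91.5, 38.9, 291 and 278 (2.21, SE 0.47), while urokinase (Plau, 3131, 1394, 3096 and 2900) overlapped and the aggrecanase Adamts4 (965, 1192, 1351 and 1410) was higher in both Prmt5sKO libraries (0.37, SE 0.21).

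Other cell types that make matrix were measured by their markers. Of 12 fibro-adipogenic markers, 11 were in the table, with summed counts of 1282, 1668, 2000 and 1812. Of these sums Tcf7l2, also expressed in myogenic cells, made up 834, 1145, 900 and 836. Of the 10 markers tested, 4 were higher and 0 lower in both Prmt5sKO libraries (40% and 0%, against 25.2% and 23.6% of all genes), and 3 had an unadjusted p under 0.05, all with higher values (30%, against 6.01%). These 3 were Pdgfrb at 45.2, 98.6, 176 and 405, Cd34 at 220, 24.6, 539 and 271, and Gli1 at 45.2, 68.7, 151 and 121, and the fourth was Pi16 at 3.39, 0, 5.19 and 16.1. Cd34 is not specific here, since the study also sorted satellite cells by it. By the fitted value 4 markers were at least 2-fold higher (40%, against 12.8%) and 2 at least 2-fold lower (20%, against 9.05%). The 2 lower ones, with overlapping groups, were Osr1 at 18.1, 37.6, 5.19 and 18.1 and Ly6a at 15.8, 29.8, 4.45 and 30.2. Dpt, below the filter, was at 0, 6.48, 0.741 and 1.01, and Pdgfra, which overlapped, was at 38.4, 44.1, 43.7 and 17.1. Smooth muscle and pericyte markers summed to 27750, 24000, 34370 and 82870, with Acta2 at 8133, 8390, 12862 and 39358 and Rgs5 at 1774, 128, 2367 and 4163. Most of each sum was Acta2 and Des, and Des is on this list as well as on the myogenic one. Of the 7 tested, 5 were higher and 0 lower in both Prmt5sKO libraries (71.4% and 0%, against 25.2% and 23.6%). An unadjusted p under 0.05 by limma-voom was found for 3, all with higher values (42.9%, against 6.01%). Myh11 (10.2, 9.08, 6.67 and 10.1) and Cnn1 (6.78, 5.19, 1.48 and 6.03, below the filter) were low and overlapped. Endothelial, haematopoietic, Schwann cell and adipocyte sums lay between 107 and 501 in every library. In the adipocyte list Fabp4 was at 25.9 in the shallower control library, where Dcn and Lum were also highest, and at 0 in the other 3. The part of these cells in the matrix values was not tested.

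Whether libraries belong together across the groups bears on these values, because the libraries differ in more than genotype. Xist, transcribed from the inactive X chromosome of female cells, was at 8668 and 5655 in the deeper control and the shallower Prmt5sKO library, and at 23.3 and 8.15 in the other 2. Within the pairs that share a Xist state, Prmt5sKO was higher in both for 18 members (39.1%, against 33.5% of all genes) and lower in both for 7 (15.2%, against 31.8%). A fit with these pairs as a replicate block called 2.13% of all genes and 5 members. These were Col6a1 (log2 fold change 2.03, SE 0.33), Nid2 (1.55, SE 0.22), Col1a2 (1.15, SE 0.21), Col25a1 (2.86, SE 0.51) and Fbn2 (-2.25, SE 0.43), with Benjamini-Hochberg adjusted p of limma-voom from 0.0208 to 0.0449. A block leaves few degrees of freedom per gene, so the SE and adjusted p of this fit lean on variance shared across all genes. The pairing was chosen with the values in view, and pairing by depth called 0 members and 0 genes. In pairs by depth, Prmt5sKO was higher in both for 14 members (30.4%, against 31.4% of all genes) and lower in both for 8 (17.4%, against 28.8%). Bgn and Timp1 lie on the X chromosome.

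Without the deeper Prmt5sKO library 3.06% of all genes were called and 6 members, namely Col25a1 (4.07, SE 0.45), Col15a1 (4.90, SE 0.74), Col5a3 (2.09, SE 0.31), Col6a1 (3.09, SE 0.52), Nid2 (2.4, SE 0.50) and Tnc (-1.67, SE 0.27), where the lone Prmt5sKO library is assumed to vary like the controls. Without the shallower Prmt5sKO library 0.611% of all genes were called and no member. For Col15a1 the log2 fold change was then -1.50, and for Col25a1 0.07.

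Some values may hold reads of other genes. Exons of 18 of the 47 members share bases with another annotated gene, most of all Timp3 (21.3% of its exon bases, with Syn3 on the other strand), Fbn1 (20.1%, Gm9913) and Spp1 (18.8%, Gm42793). The strand setting of the authors' counting is not given in the sources used here, so reads of overlaps between strands cannot be assigned to a gene. Gm42793 lies on the same strand as Spp1, so no strand setting would separate their shared reads.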

How the data were processed

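RNA of the 4 cultures was depleted of ribosomal RNA (RiboMinus) and sequenced on the Ion Torrent platform. The authors trimmed reads with Reaper, aligned them with STAR 2.4.0a to mm10 (GRCm38), obtained counts per gene and used DESeq2 for the contrast. Per gene, the deposited signal is the mean normalised count in each group, scaled by the authors with size factors. The columns of their comparison (fold changes and p-values) were not used. Since each mean is built from whole reads, the reads of both libraries could be recovered for 20065 of 20065 genes in both groups, within a relative tolerance of 1e-13, and in simulated libraries for 19722 of 19722 and 19220 of 19220 genes.

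Recovered reads were scaled by TMM factors (own code, trims of 30% and 5%) and tested with limma-voom (limma 3.58.1, R 4.3.3) without covariates, with Benjamini-Hochberg adjustment over the 16212 genes with a mean of at least 5. The thresholds were those of the study's methods. Normalised read counts were scaled to the mean effective library size, and levels per kb used the exon length of GENCODE vM21, which held 19782 of the gene identifiers. The members, gene lists and tests were chosen with earlier results of these data known. All 47 members are named. Of the pathway lists, up to 6 genes were named with groups that did not overlap, an unadjusted p under 0.05 and a change of at least 2-fold, and the 2 most abundant, and of each marker list genes among the 3 most abundant. Xist was named as a check, and Dpt, Pdgfra, Gli1, Pi16, Osr1, Ly6a, Myh11, Cnn1 and Fabp4 were picked after their values were seen. The test was also run on simulated data with 2-fold and 4-fold changes. The spread set there was below that of members such as Col15a1 and Spp1. That run therefore does not show what the test can call in these data. The counting interval of Lama4 is an exact binomial one and covers counting error only. Alternatives were other scalings, filters and tests, replicate blocks, and each library left out.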

Additional observations from a re-analysis of the deposited data

How the results depend on the processing

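Under 13 alternatives, 26 of the 46 members tested kept the sign of their log2 fold change, and 20 changed it in at least 1, of which 14 did so only with a library left out. The replicate block with crossed pairing gave 346 genes called in place of 0, and 5 members called. The replicate block with the deeper libraries paired gave 0 and 0. The labels number the replicates 1 and 2 in each group, but which recovered library has which number is not shown by the columns, so neither pairing comes from the labels. Leaving out 1 library at a time, the genes called ran from 0 to 496 and the members called from 0 to 6. The members higher in both Prmt5sKO libraries ran from 12 to 26, and those lower in both from 7 to 14 (fewer libraries must agree there). Of these, 24 were higher without the deeper Prmt5sKO library and 26 without the deeper control library, and 14 were lower without the shallower control library. The shares of all genes under these settings are not given here, so these counts cannot be read as particular to the members. The median log2 fold change of the members ran from 0.03 without the shallower control to 0.88 without the deeper control, and from 0.34 to 0.59 under the other settings. Library size only moved the median of all genes to 0.13.

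Signs that turned with scaling were small values. Under library size only, Col8a1 was at 0.0035, Nid1 at 0.042, Hspg2 at 0.10 and Thbs1 at 0.038. Under upper-quartile factors Col5a1 was at -0.0052 and Col12a1 at -0.0060, and with the length and GC trend removed Col5a1 was at -0.10. The cause was not tested. With libraries left out, the log2 fold changes that turned had these ranges. Among collagen chains they were -0.53 to 0.55 for Col5a1, -0.61 to 1.65 for Col6a3, -0.29 to 0.084 for Col8a1, -0.26 to 0.28 for Col12a1, -1.50 to 4.90 for Col15a1, -0.18 to 2.16 for Col18a1, -1.27 to 0.47 for Col4a1 and -0.99 to 0.32 for Col4a2. Among the others they were -0.45 to 0.085 for Lamb1, -0.60 to 0.47 for Nid1, -0.27 to 0.25 for Hspg2, -0.80 to 0.19 for Agrn, -0.53 to 0.97 for Fn1, -0.68 to 0.34 for Sparc, -0.35 to 2.10 for Spp1, -0.39 to 0.26 for Thbs1, -2.97 to 0.83 for Dcn, -0.42 to 0.16 for Fbn1, -0.43 to 1.80 for Timp3 and -0.032 to 1.68 for Mmp14. Depth limits Lama4, Eln, Lum, Loxl2 and Col11a1, which had few reads, and Col15a1, which had few outside the shallower Prmt5sKO library. The size of the groups, 2 libraries each, limits all tests.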
